A study of Rattus norvegicus with 88 samples.

Results

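Among 17123 genes measured in the orbitofrontal cortex of 80 outbred rats, 99 had an extreme spread from rat to rat. These members were chosen by their own values: a mean of at least 3 and an SD over 2 on the log2(normalized count + 1) scale across the 80 libraries. A total of 105 genes passed both thresholds, and 6 of them had been left out by identifier. Since these same values chose the members, their means, SDs and classes of rats are given as a description with no test. The rule used no label of sex or rat batch, and both were tested over all genes. A difference between groups adds to the SD, however, so those tests are not independent of the choice.

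The rats were heterogeneous stock (HS) animals kept in groups, with no earlier drug exposure or behavioural testing. They comprised 41 males and 39 females, and by label 15 came from rat batch 2, then 22 from batch 3, 26 from batch 4, a lone rat from batch 5 and 16 from batch 6. Each library came from polyA RNA of the dissected region of 1 rat, and the depth recovered from the values ran from 5.67 M to 25.6 M reads, with a median of 18.1 M. In such bulk tissue, fewer cells of a type and less RNA per cell cannot be told apart. The column names of the table ascended in 3 runs of 21, 13 and 46 columns. What a column run stands for was not given, and it is called a column run here. Runs 1 and 2 held batches 2 and 3, and run 3 held batches 4, 5 and 6 with 3 rats of batch 3.

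HS rats descend from several inbred founder strains, so each animal carries its own mosaic of founder chromosomes. Where founders differ at a variant that acts on a nearby gene, RNA of that gene can be abundant in one animal and missing in the next. A gene that is deleted or duplicated in some founders, or whose sequence differs from the reference, can give the same picture in read counts. Near-identical gene copies are a further source of large spread, because reads that match several copies are divided among them. The values cannot tell these apart, and none of them was tested. The files used here do not pair Ensembl identifiers with gene names or positions, so the members are given by identifier, what they encode is not stated, and markers of cortical cells could not be checked.

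The SD of the members ran from 2.01 to 5.58 with a median of 2.66, against a median of 0.24 over the 14803 genes with a mean of at least 3. Their means ran from 3.04 to 15.52 with a median of 4.64. The 3 members nearest to the SD threshold were ENSRNOG00000030807 at 2.01, ENSRNOG00000047746 at 2.01 and ENSRNOG00000048750 at 2.01. The 3 genes just outside were ENSRNOG00000025731 at 1.99, ENSRNOG00000028896 at 1.99 and ENSRNOG00000050172 at 1.99. At the threshold on the mean, the members nearest were ENSRNOG00000031439 at 3.04, ENSRNOG00000026134 at 3.05 and ENSRNOG00000050158 at 3.05. The genes just outside on that side were ENSRNOG00000046382 at 2.99, ENSRNOG00000034130 at 2.94 and ENSRNOG00000011124 at 2.93.

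**Figure D1:**
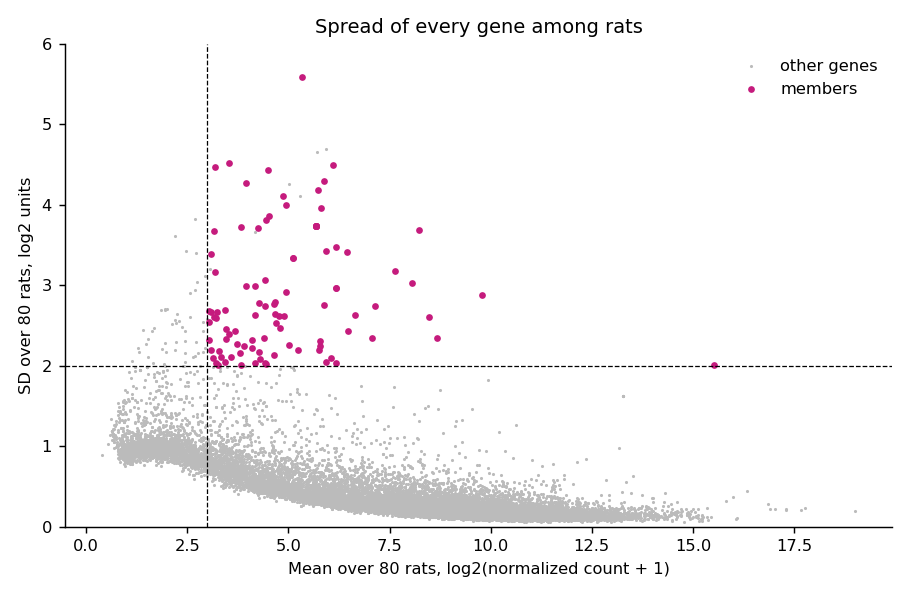
Mean (x axis) and SD (y axis) of each of 17123 genes over 80 rats, both on the log2(normalized count + 1) scale, with the 99 members in colour and the thresholds of 3 and 2 as dashed lines. Most members lay at low to moderate means, and ENSRNOG00000047746, at a mean of 15.52, stood alone at the far right.

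A rat was called off for a gene when its library held at most 3 recovered reads of it, and high when the normalized count was at least 100. Of the 99 members, 96 were off in at least 1 rat and 81 were off in some rats and high in others. In 50 members at least 10 rats were off and at least 10 were high. In another 30 at least 10 rats were off and fewer than 10 were high, and 15 members reached 100 in no rat. The 3 members that were never off were ENSRNOG00000012067 (lowest normalized count 4), ENSRNOG00000059504 (lowest 8) and ENSRNOG00000047746 (lowest 4574). A single rat was off for between 12 and 44 of the members, with a median of 25, and high for between 19 and 45. Across the 80 libraries, the number of members off had a Spearman correlation of -0.36 with depth (Pearson -0.39, and Spearman -0.32 without the 2 libraries of most extreme depth). Within column runs 1, 2 and 3 the Spearman correlation was 0.02, -0.26 and -0.30, over 21, 13 and 46 libraries.

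Splitting the rats at the largest gap in a member's sorted values gave 58 members with 2 separated classes, where the gap was at least 2 on the log2 scale and each class held at least 4 rats. The same rule split 0.696% of the genes with a mean of at least 3, and a large SD favours such a gap, so nothing is read from the difference. In 38 of the 58 the low class had a normalized count of 0 in every rat, and in 51 it was off in every rat. The smaller class held from 5 to 39 rats, with a median of 19.5. More rats lay in the high class in 49 members, and more in the low class in 9. Both classes occurred in each sex in 57 of the 58, and in each of rat batches 2, 3, 4 and 6 in 40.

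The member with the largest SD, ENSRNOG00000007219 (SD 5.58), had a normalized count of 0 in 41 rats. In the other 39 it ran from 247 to 9201 with a median of 2326, and no rat lay in between. ENSRNOG00000036701 (SD 4.52) was at 0 in 48 rats and ran from 11 to 4311 in the other 32, with a median of 679. Both were absent from most rats of column runs 1 and 2, as described further on.

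ENSRNOG00000022595 (SD 4.47) had at most 3 normalized counts in 54 rats and from 488 to 1085 in the other 26, with a median of 794.5. ENSRNOG00000050374 (SD 4.18) had at most 1 in 28 rats and from 348 to 529 in 52, with a median of 436. Its high class was the most even of the 58, with an SD of 0.16 on the log2 scale, less than the median SD of 0.24 over genes with a mean of at least 3. Over the 58 split members, the SD within the high class ran from 0.16 to 2.25 with a median of 0.92. Being in the high class therefore fixed the level closely in some members and loosely in others.

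ENSRNOG00000030704 (SD 4.49) held at most 30 normalized counts in 31 rats and from 280 to 1989 in 49. ENSRNOG00000050535 (SD 4.00) was at 0 in 31 rats and from 114 to 915 in 49. ENSRNOG00000018522 (SD 3.86) was at 0 in 33 rats and from 77 to 646 in 47. In each of these the classes were wide apart, and the high class spread over several-fold.

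ENSRNOG00000060594 (SD 3.96) had at most 3 normalized counts in 25 rats and from 20 to 992 in 55. ENSRNOG00000060344 (SD 4.10) had at most 2 in 32 rats and from 14 to 1197 in 48. ENSRNOG00000051180 (SD 4.30) was not split: it was off in 23 rats, between in 18 and high in 39, up to 2772. The remaining members among the 12 with the largest SD, ENSRNOG00000050864 and ENSRNOG00000049269, belonged to sets of genes described below.

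**Figure D2:**
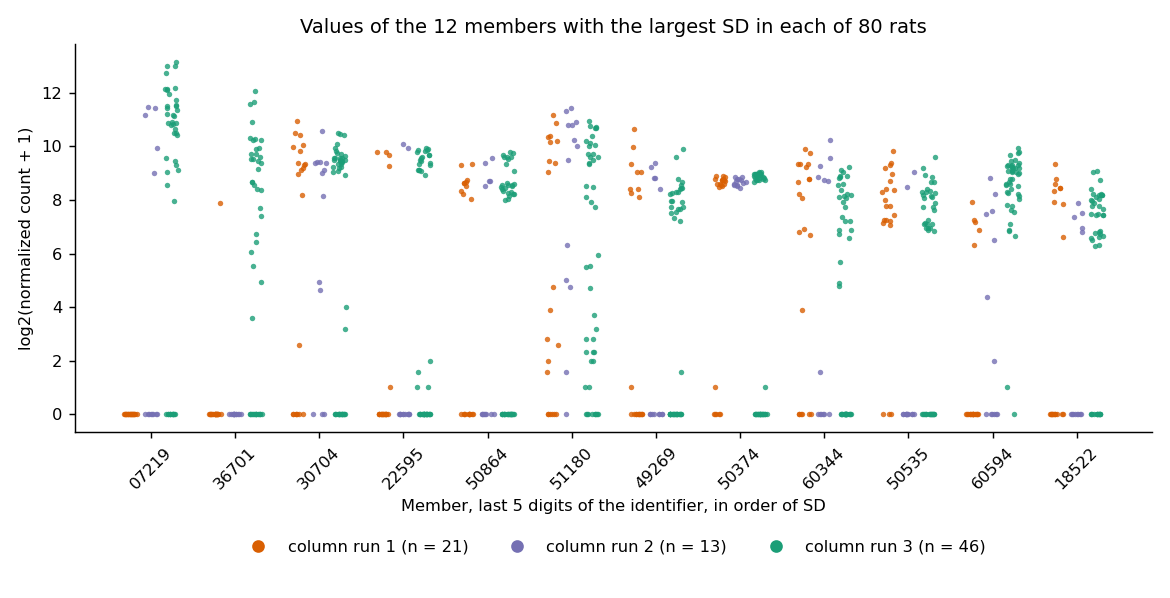
Value of each of the 12 members with the largest SD in each rat (y axis, log2(normalized count + 1)), with 1 point per rat coloured by column run (n = 21, 13 and 46) and members in order of SD along the x axis. Points at 0 and points above about 6 form separate bands in most members, while ENSRNOG00000051180 fills the range between them.

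Some classes were far from even in size. ENSRNOG00000031439 had at most 25 normalized counts in 70 rats and from 574 to 1541 in 10. At the other end, ENSRNOG00000059069 was at 0 in 5 rats and at a median of 693 in 75, and ENSRNOG00000051286 was at 0 in 6 rats and between 385 and 2828 in 74. In 12 split members the smaller class had under 10 rats, and in 16 both classes had at least 30.

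Sets of genes that switched together were few once identical rows were counted once. In 3 pairs of split members the phi coefficient (the correlation of the 2-class calls) was at least 0.8. Of these, ENSRNOG00000048456 with ENSRNOG00000048523, and ENSRNOG00000058083 with ENSRNOG00000061096, held the same value in all 80 libraries. A further 7 members also shared all their values with one another: ENSRNOG00000051831, ENSRNOG00000053888, ENSRNOG00000056172, ENSRNOG00000058725, ENSRNOG00000058896, ENSRNOG00000059394 and ENSRNOG00000059852. These 11 members stand for 3 profiles, which leaves 91 distinct profiles among the 99. Whether such rows are separate genes cannot be told from the values, and they are uncertain as counts of single genes.

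The third pair, ENSRNOG00000049269 and ENSRNOG00000028543, had different values but the same classes in 80 of 80 rats. In the 43 rats of the low class, ENSRNOG00000049269 had at most 2 normalized counts and ENSRNOG00000028543 had from 3 to 88, with a median of 32. In the 37 of the high class the first ran from 148 to 1606, with a median of 337, and the second from 3339 to 8578, with a median of 4107. The high class held 9 of 21 rats of column run 1, 5 of 13 of run 2 and 23 of 46 of run 3.

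Another gene went the other way in the same rats. ENSRNOG00000017895, which is no member (SD 0.42), ran from 10839 to 17732 normalized counts in the 43 rats where both members were low, with a median of 13504. In the 37 rats where they were high it ran from 4664 to 13787, with a median of 8787. ENSRNOG00000028543 was also divided within its high class at 6000 normalized counts, a cut set by hand and not by the gap rule. In 32 rats it lay between 3339 and 5808, beside 8160 to 13787 of ENSRNOG00000017895. In 5 rats it lay between 6873 and 8578, beside 4664 to 6716. The sum of ENSRNOG00000028543 and ENSRNOG00000017895 had a median of 13543 in the low class and 13216 in the high class, and its SD over all rats was 0.19 on the log2 scale. That is less than the SD of 3.68 of ENSRNOG00000028543 and of 0.42 of ENSRNOG00000017895. These 3 genes were brought together after their values were seen.

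No pair of split members reached a phi coefficient of -0.8 or below. The lowest was -0.71, for ENSRNOG00000060594 and ENSRNOG00000027791, which lay on opposite sides in 68 of 80 rats. ENSRNOG00000036701 and ENSRNOG00000027791 followed at -0.67, on opposite sides in 65. In both pairs the classes differed in share between column runs. ENSRNOG00000060594 was in its high class in 5 of 21 rats of run 1, 6 of 13 of run 2 and 44 of 46 of run 3. Of the 68 rats on opposite sides, 44 were in run 3 with ENSRNOG00000060594 high, 16 in run 1 and 7 in run 2 with it low, and 1 in run 3 with it low. Within batch 3 its difference between runs did not pass the test (limma adjusted p = 0.149).

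Opposition was also looked for in the levels, with partners taken from all genes. For each member, the gene with the most negative Spearman correlation was chosen in the 46 libraries of column run 3 and read in the 34 libraries of runs 1 and 2. This step was added after the data were seen. The correlation was at most -0.6 in both sets for 25 members, beside 8.82% of the genes with a mean of at least 3. Members were chosen for a large SD, which can favour such a correlation, so nothing is read from the difference. All libraries share one scaling to the upper quartile, and the correlations are a description with no p. The 25 members with their partners made 22 different pairs, of which 3 were pairs of members. In 24 of the 25 the summed count of member and partner had a smaller SD than either gene alone. Pairs chosen for opposition favour a steadier sum, and some pairs that did not pass had one too, so nothing is read from this count. ENSRNOG00000050374 with ENSRNOG00000049895 did not pass (Spearman -0.63 in run 3 and 0.12 in runs 1 and 2). Yet ENSRNOG00000049895 ran from 523 to 699 normalized counts in the 28 rats where the member was off. In the 52 rats where the member was high it ran from 112 to 169. The Spearman rule can therefore miss pairs with separate levels.

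ENSRNOG00000050864 and ENSRNOG00000046990 were the most opposed, with a Spearman correlation of -0.92 over 80 rats, -0.93 in run 3 and -0.90 in runs 1 and 2. In 39 rats ENSRNOG00000050864 was at 0 and ENSRNOG00000046990 ran from 597 to 892 normalized counts, with a median of 802. In 9 rats ENSRNOG00000046990 was off and ENSRNOG00000050864 ran from 638 to 859, with a median of 771. In the other 32 rats both were present, with medians of 365.5 for ENSRNOG00000050864 and 426 for ENSRNOG00000046990. No rat lacked both. The sum of the pair was close in the 3 classes, with medians of 802, 771 and 792.5, and its SD was 0.14 against 4.43 and 3.03 for the genes alone. The share of ENSRNOG00000050864 in the sum was under 5% in 39 rats, between 35% and 65% in 23 and over 95% in 11, which left 7 rats between these ranges. Each of rat batches 2, 3, 4 and 6 held rats of all 3 classes.

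ENSRNOG00000051180 and ENSRNOG00000051286 were opposed in the same way (Spearman -0.82, with -0.79 in run 3 and -0.91 in runs 1 and 2). ENSRNOG00000051180 was off in 23 rats, in which ENSRNOG00000051286 ran from 1303 to 2828. In 6 rats ENSRNOG00000051286 was at 0 and ENSRNOG00000051180 ran from 1650 to 2772. Both were present in 51 rats, but less neatly: ENSRNOG00000051180 ran from 4 to 2288 there. The median sum was 2109, 1867 and 2133 in the 3 classes.

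ENSRNOG00000060344 and ENSRNOG00000059069 made the third pair of members (Spearman -0.76, with -0.80 in run 3 and -0.85 in runs 1 and 2). The first was off in 32 rats with the second at 580 to 1206, and the second was at 0 in 5 rats with the first at 459 to 1197. Both were present in 43 rats. The median sum was 828, 859 and 822.

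**Figure D3:**
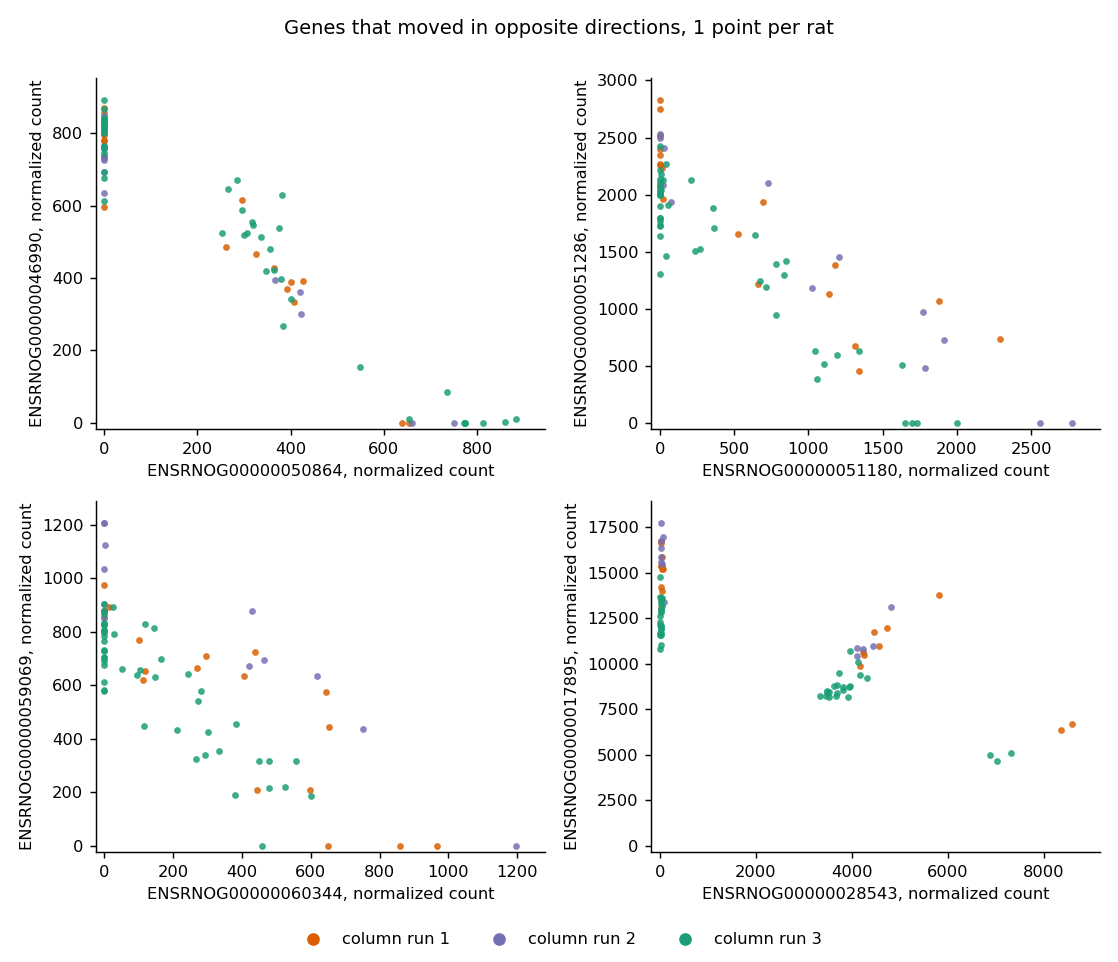
Normalized counts of the 2 genes of a pair on the x and y axes (linear), with 1 point per rat coloured by column run, for the 3 pairs of members and for ENSRNOG00000028543 with ENSRNOG00000017895. Rats with the first gene at or near 0 lie along the y axis, those of the member pairs with the second gene off lie along the x axis, and no point lies near the origin.

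In the other 19 pairs the partner was no member and was often well above 0 in every rat. Among the 12 members with the largest SD, ENSRNOG00000018522 had ENSRNOG00000047565 as its partner (Spearman -0.87 over all rats). That gene ran from 666 to 1234 normalized counts in the 33 rats where the member was off and from 336 to 879 in the 41 where it was high. The ranges overlapped, and the SD of the sum was 0.17 against 3.86 for the member and 0.40 for the partner alone. For ENSRNOG00000030704 the partner was ENSRNOG00000001738 (Spearman -0.69), at 4366 to 6663 where the member was off and 2205 to 5527 where it was high. For ENSRNOG00000050535 it was ENSRNOG00000003160 (Spearman -0.67), at 1705 to 2681 against 1313 to 2472.

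ENSRNOG00000006612 differed from these in that its partner was nearly its mirror image. The member was off in 20 rats, in which ENSRNOG00000049132 ran from 154 to 410. In the 60 rats of its high class the member ran from 99 to 356. Only 2 rats had both above the limit of 3 reads, 58 had the member alone and 20 the partner alone. The partner's mean of 2.21 kept it below the threshold on the mean. The pattern was not particular to ENSRNOG00000006612. For ENSRNOG00000050158 with ENSRNOG00000019199, 41 rats had the member alone, 32 the partner alone and 7 both. For ENSRNOG00000053115 with ENSRNOG00000052023 these numbers were 43, 21 and 15, and 1 rat had neither.

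For the 5 members with the largest SD, the 3 genes most like each were found by absolute Spearman correlation over the 80 libraries, and for ENSRNOG00000030704 and ENSRNOG00000050864 the first was the opposed partner above. ENSRNOG00000007219 was most like ENSRNOG00000036701 (0.80), then ENSRNOG00000031890 (0.75) and ENSRNOG00000045680 (0.73). ENSRNOG00000036701 was next most like ENSRNOG00000042696 (-0.79) and ENSRNOG00000045680 (0.78). For ENSRNOG00000030704 the 2 after its partner were ENSRNOG00000038160 (-0.55) and ENSRNOG00000025031 (0.44). For ENSRNOG00000022595 they were ENSRNOG00000059764 (-0.61), ENSRNOG00000020318 (-0.47) and ENSRNOG00000019983 (-0.46), and for ENSRNOG00000050864 the next were ENSRNOG00000031607 (-0.38) and ENSRNOG00000045539 (0.37).

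Between the sexes, 0 of the members passed the adjusted test. In the 58 split members the share of rats in the high class differed between males and females by a median of 5.50 percentage points, with 24 members higher in males and 34 in females. The widest difference was for ENSRNOG00000059957, with 29.3% of 41 males and 64.1% of 39 females in the high class. With rat batch in the model, the difference between the sexes was past a limma adjusted p of 0.05 in 0 of 99 members, beside 0.117% of all 17123 genes. An unadjusted p under 0.05 was found in 10 members, beside 7.14% of all genes. On the log2 scale the median standard error of the difference was 0.53 and the median absolute difference 0.55, so differences of a size common among the members were not detectable here. With voom weights on recovered reads 1 member was called, ENSRNOG00000039783, at 2.95 higher in males on the log2 scale (limma adjusted p = 0.00496). Its adjusted p in the other settings tried ran from 0.345 to 0.999. In normalized counts it ran from 0 to 649 in males, with a median of 70, and from 0 to 521 in females, with a median of 4.

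Rat batches 2, 3, 4 and 6 differed in 51 of the 99 members at a limma adjusted p under 0.05, with sex in the model. Over all genes the share was 64.7%, so members were called no more often than genes at large, and a batch difference itself adds to the SD that chose them. The 51 stand for 43 distinct profiles. Both of batches 4 and 6 had a higher mean than batches 2 and 3 in 23 members (22 distinct profiles) and a lower one in 22 (15 distinct profiles), with another order in 6. In the 51, the median range of the 4 batch means was 3.33 (log2). The 3 members with the largest p were ENSRNOG00000051180 (limma adjusted p = 0.972), ENSRNOG00000046990 (limma adjusted p = 0.929) and ENSRNOG00000021960 (limma adjusted p = 0.887). The first 2 of these belong to opposed pairs.

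The smallest p was that of ENSRNOG00000027791 (limma adjusted p = 4.2e-28). Its normalized counts spanned 125 to 436 in batch 2 and 0 to 264 in batch 3, while all 26 rats of batch 4 were at 0 and none of batch 6 exceeded 9. The next were the 7 members with identical values (limma adjusted p = 6.32e-19). Their counts spanned 74 to 2313 in batch 2 (median 700) but 1 to 33 in batch 4 (median 7). In the other direction, ENSRNOG00000007219 was 0 in all 15 rats of batch 2 and present in 20 of 26 of batch 4 (limma adjusted p = 1.76e-06). ENSRNOG00000036701 was likewise 0 in all of batch 2 and in the high class in 20 of 26 rats of batch 4 (limma adjusted p = 2.74e-07).

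Column run and rat batch overlapped. With column run as a further term, 3 of the 99 members differed between rat batches, beside 18.6% of all genes. Inside run 3 alone, batches 4 and 6 differed in 5 members, beside 13.7% of all genes. ENSRNOG00000010268 was higher in batch 4, with a median of 51.5 normalized counts against 5.5 (limma adjusted p = 0.01004). ENSRNOG00000052690 was higher in batch 6, with a median of 46.5 against 11 (limma adjusted p = 0.0123). In both, the ranges of the batches overlapped.

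Rat batch 3 was the only batch with several rats in more than 1 run: 7 in run 1, 12 in run 2 and 3 in run 3. Within it, 24 members differed between the runs at a limma adjusted p under 0.05, beside 11.2% of all genes. A difference between runs adds to the SD that chose the members, and identical rows add to the count, so nothing is read from the difference in share. The 24 stand for 17 profiles, and 19 of the 24 (12 distinct profiles) were lowest in the 3 rats of run 3. How many of all called genes were lowest there was not counted. These fits were chosen after the data were seen, and with 3 rats in 1 arm their spread rests mainly on the other runs.

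ENSRNOG00000027791 was the 1 member whose values did not overlap between runs 1 and 2, at 13 to 436, and run 3, at 0 to 9. The share of all genes without such an overlap was not counted, so nothing is read from this number. Within batch 3 it ran from 13 to 264 in run 1, from 49 to 241 in run 2 and was 0 in the 3 rats of run 3 (limma adjusted p = 3.32e-07). ENSRNOG00000036701 had the reverse pattern. It was 0 in 6 of the 7 rats of run 1 and 237 in the other, 0 in the 12 of run 2, and 327, 343 and 664 in the 3 of run 3 (limma adjusted p = 8.39e-05). ENSRNOG00000007219 was 0 in all 21 rats of run 1 and in 8 of the 13 of run 2, and was in its high class in 34 of the 46 of run 3. In the 3 batch 3 rats of run 3 it ran from 2598 to 6923 (limma adjusted p = 0.0214 within the batch).

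Run 3 was not uniform. There, 30 of 46 rats were in the high class of both ENSRNOG00000007219 and ENSRNOG00000036701, 11 in neither, 4 in that of the first alone and 1 in that of the second alone. The rats of run 2 that had ENSRNOG00000007219 numbered 5, and none of these had ENSRNOG00000036701. Within run 3 the classes were therefore shared by 41 of 46 rats.

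A set of members led by a very abundant gene was also linked to the runs. ENSRNOG00000047746 took from 0.165% to 2.27% of the counts of a library in run 1, from 0.309% to 7.60% in run 2 and from 0.0250% to 0.568% in run 3. All other members together took from 0.0548% to 0.393%. Its Spearman correlation over 80 rats was at least 0.8 with 11 members, which are the 7 of identical values, the pair ENSRNOG00000058083 and ENSRNOG00000061096, and ENSRNOG00000054493 and ENSRNOG00000057527. Within the runs it was 0.80, 0.96 and 0.74 with the 7, 0.95, 0.93 and 0.71 with the pair, and 0.90, 0.90 and 0.50 with ENSRNOG00000054493. With ENSRNOG00000057527 it was 0.85, 0.86 and 0.48. The genes thus varied together among the rats of each run as well as between runs.

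The medians of ENSRNOG00000047746 were 108966 normalized counts in run 1, 171456 in run 2 and 18006 in run 3, and its ranges overlapped. The 7 members of identical values had medians of 700, 578 and 6, and the ranges of runs 2 and 3 overlapped. Within batch 3 their medians were 672, 1366.5 and 2 (limma adjusted p = 0.000109). ENSRNOG00000054493 had medians of 71, 230 and 3 within batch 3 (limma adjusted p = 8.39e-05). Within that batch the 7 reached at most 29 in run 3 and were never below 83 in the other runs. ENSRNOG00000054493 reached at most 12 in run 3 and was never below 20 in the others, so neither profile overlapped. Other members did not overlap there either, among them ENSRNOG00000058083 and ENSRNOG00000061096 (at most 93 in run 3, at least 108 in the others). Run 3 held 3 rats of this batch, and the share of all genes without such an overlap was not counted. Nothing is read from the lack of overlap.

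In a further trio, ENSRNOG00000060518 varied together with each of ENSRNOG00000054945 and ENSRNOG00000059504. ENSRNOG00000060518 had a Spearman correlation of 0.91 with ENSRNOG00000054945 (0.97 in run 3) and of 0.90 with ENSRNOG00000059504 (0.89 in run 3). ENSRNOG00000054945 and ENSRNOG00000059504 did not reach an absolute correlation of 0.8 with each other. ENSRNOG00000059504 had medians of 486, 479 and 41 in runs 1, 2 and 3. ENSRNOG00000054945 was instead highest in run 2, with medians of 11, 281 and 6.5.

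**Figure D4:**
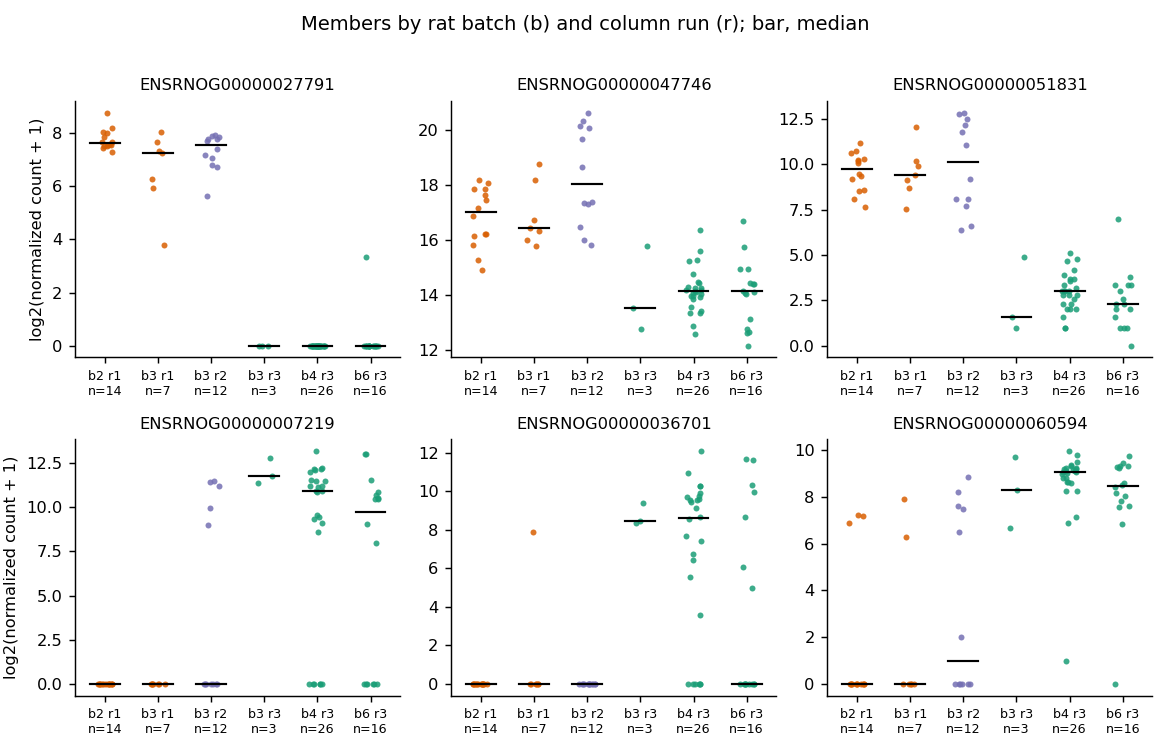
Values of 6 members (y axis, log2(normalized count + 1)) by rat batch and column run (x axis), with 1 point per rat and a bar at the median. In ENSRNOG00000027791, ENSRNOG00000047746 and ENSRNOG00000051831 the 3 rats of batch 3 in run 3 lie below all other rats of batch 3. In ENSRNOG00000036701 they lie above them, and in ENSRNOG00000007219 and ENSRNOG00000060594 the ranges overlap. The single rats of batch 5 and of batch 2 in run 2 are not drawn.

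The division between run 3 and the rest was not the only one. ENSRNOG00000050535 was in its high class in 18 of 21 rats of run 1, 2 of 13 of run 2 and 29 of 46 of run 3. Within batch 3 it ran from 132 to 915 in run 1, had a median of 0 in run 2 and ran from 0 to 305 in run 3 (limma adjusted p = 0.00163). ENSRNOG00000050374 was in its high class in all 13 rats of run 2 and in 15 of 21 and 24 of 46 of the others, but within batch 3 its difference between runs did not pass the test (limma adjusted p = 0.336).

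With the means of the 3 column runs removed, 74 genes passed both thresholds, and 84 did with the means of sex and rat batch removed. Of the 58 split members, 44 had both classes in each of the 3 runs.

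**Figure D5:**
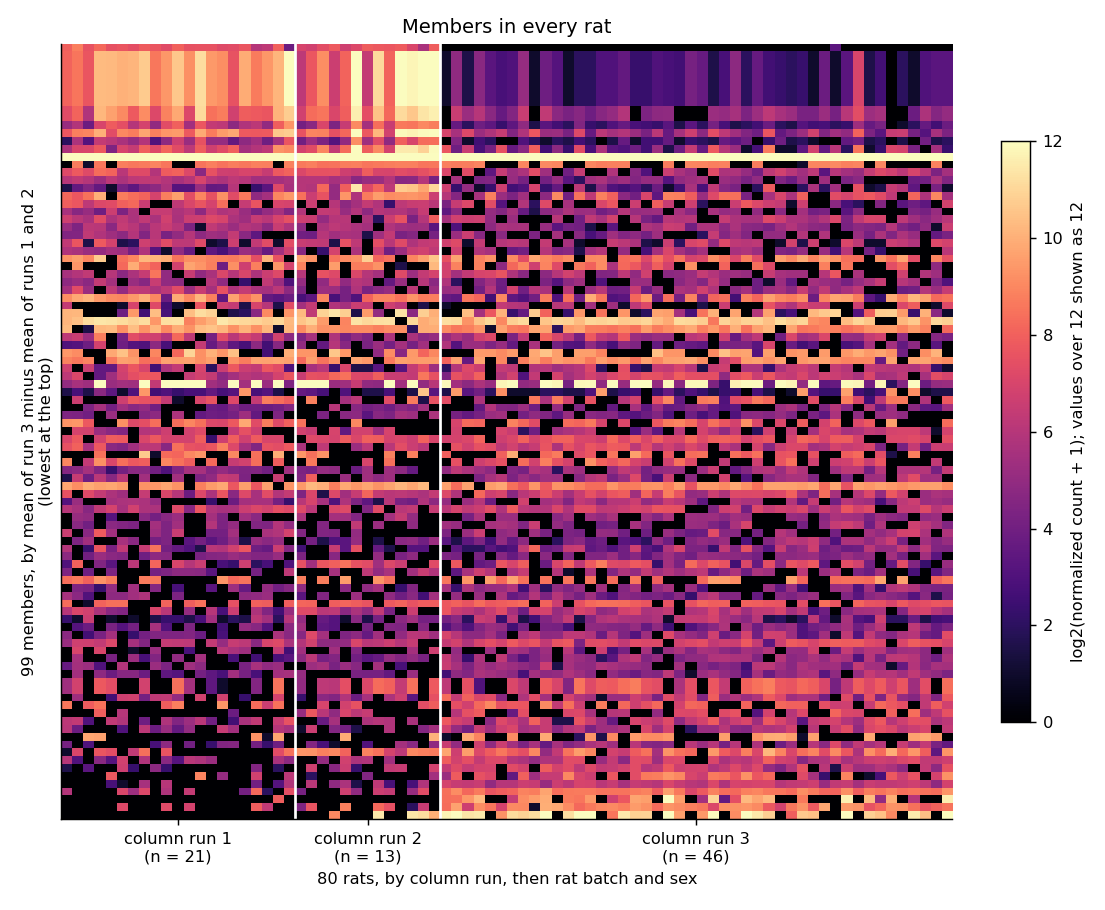
Colour gives log2(normalized count + 1) of the 99 members (rows) in 80 rats (columns), with values over 12 shown as 12, rats ordered by column run, then batch and sex, and rows ordered by mean of run 3 minus mean of runs 1 and 2. The top rows are bright in runs 1 and 2 and dark in run 3, the lowest rows the reverse, and most rows between hold dark and bright cells in all 3 runs.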

How the data were processed

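RNA-Seq of orbitofrontal cortex was deposited as 1 table of log2 values. By their methods, the authors used cutadapt for trimming, RSEM on the Ensembl rat transcriptome for gene counts (build Rnor_6.0 in the submitters' processing notes) and DESeq2 for an upper-quartile scaling. The deposited log2 values include a pseudocount of 1. Of 88 samples described, 8 were marked as removed and are not analysed here. Each column matched 1 sample title, with 0 columns left over.

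Raised to the linear scale, the deposited values less 1 were whole numbers within a relative departure of 3.98e-06. The value of 1 read in each library, from 0.733 to 3.51, was found by a Poisson likelihood over values up to 300, and at least 99.2% of these were multiples of it after rounding. Where it is under 1, adjacent read numbers can share a value. Limits from counts cover counting error only, and depth limits what was called off.

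Models used limma 3.58.1 in R 4.3.3 (eBayes with a mean trend) on all 17123 genes, with Benjamini-Hochberg adjustment over all of them and a threshold of 0.05. Sex was fitted on 80 libraries with batch as a factor, and batch by a moderated F test on batches 2, 3, 4 and 6 with sex. In simulated counts of 17123 genes, 200 of them changed by a log2 value of 1, recovery was 100% for sex and 99.0% for batch. With changes of 0.5 it was 84.5% and 73.5%. The changed genes were drawn from well-read genes of limited spread. These rates therefore do not carry over to the members, which were chosen for a large spread. Python 3.11.15, numpy 2.4.6 and pandas 2.3.3 did the rest.

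The members, the gene lists and the rule for named genes were chosen with earlier results of these data known. The rule named the 12 members of largest SD, the 3 genes on each side of each threshold, sets that switched together, members called between the sexes, the 5 smallest and 3 largest p between batches, and the 3 genes most like each of the 5 members of largest SD. Other members named were chosen after their values were seen. Family and cell type lists could not be applied, since 0 of the identifiers matched the RefSeq table for GRCr8. No pair of libraries held identical values. P-values measure the spread between rats.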

Additional observations from a re-analysis of the deposited data

How the results depend on the processing

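The number of members depended on the scale and the threshold: 36 genes passed with a pseudocount of 10, 165 with an SD over 1.5 and 60 with an SD over 2.5. Over the other 14 settings tried, which left out a rat batch, kept 1 sex or 1 column run, removed group means, moved the mean threshold or counted identical rows once, it stayed between 67 and 132. The 58 split members became 19 with a pseudocount of 10 and 37 in column run 2 alone, which holds 13 rats. The 3 pairs that switched together became 31 in males alone, 23 of them between genes with identical values, and 1 with identical members counted once. With an absolute phi of at least 0.7, 1 pair switched in opposition in place of 0. The 25 members with an opposite partner became 6 at a threshold of 0.8. The sex model called 1 member with voom weights and 0 under the 10 other settings. The 51 members called between rat batches became 0 with 20 principal components, where 1 of all 17123 genes was called and 8 members and 9.75% of all genes had an unadjusted p under 0.05. They became 3 with a column run term and 5 between batches 4 and 6 inside run 3, and 43 to 53 under the 9 others. The cause of these shifts was not tested. Settings that use column runs, identical rows or opposite partners were chosen after seeing the data. No paired analysis was possible because each rat gave 1 library here and belongs to 1 sex and 1 batch. A rat called off may hold up to 3 reads, and in the shallowest library (5.67 M reads) low members are the least certain.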
